A study of Homo sapiens with 28 samples.

Results

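The genes described here are 50 human genes for enzymes that add or remove methyl and acetyl groups on histones: 15 demethylases, 17 methyltransferases, 8 acetyltransferases and 10 deacetylases. Each was taken by its gene symbol from the array's annotation, with the probe set of highest mean log2 intensity standing for the gene. All 50 were on the array, out of 22357 named genes, and 48 passed the filter of a log2 intensity above 5 on at least 4 arrays. HDAC7 (3.68 to 5.12 over the 28 arrays) and HDAC9 (1.76 to 3.62) did not pass and were not tested.

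CHL-1, an established melanoma cell line of human origin, was seeded the day before BAY1238097, a BET inhibitor, or its vehicle DMSO was added. The 6 groups were DMSO for 4 h (n = 4), 75 nM for 4 h (n = 5), 468 nM for 4 h (n = 5), DMSO for 24 h (n = 4), 75 nM for 24 h (n = 5) and 468 nM for 24 h (n = 5), with no genetic change named in any group. RNA was measured on Affymetrix arrays as RMA intensities, which were transformed to log2. Nothing in the labels states whether replicates were grown as independent cultures. A p-value here therefore reflects the scatter of the deposited samples alone, possibly a technical one, and replicate numbers only name arrays.

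BET proteins bind acetylated lysines of histones through their bromodomains and bring transcription factors and the elongation machinery to promoters and enhancers. Histone acetyltransferases write the marks that BET proteins read, and deacetylases remove them. Histone methylation can mark active genes or silent chromatin depending on the lysine, and methyltransferases and demethylases are often specific for one lysine and one degree of methylation. Many of these enzymes act only within complexes, and paralogs such as EZH1 and EZH2 can stand in for each other.

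The label melanoma was set against its markers, of which 5 of 11 on the array passed the filter. Those that passed were SOX10 (mean log2 intensity 9.55), ERBB3 (9.46), NES (8.23), S100B (6.95) and GPM6B (4.70). The pigment genes MLANA (1.51), TYR (1.30), TYRP1 (1.05) and PMEL (2.95) did not pass. The regulator MITF (2.60) and the marker S100A1 (4.09, highest array 4.83) did not pass either. Of 8 keratinocyte and 9 endothelial markers on the array none passed, and 1 of 8 fibroblast (FBLN1) and 1 of 9 leukocyte markers (CD68) did. The response to the drug was seen in HEXIM1, a widely used marker of BET inhibition, at 468 nM (log2 change 1.67, SE 0.13 at 4 h and 1.30, SE 0.13 at 24 h, limma adjusted p = 5.2e-10 and 8.76e-09). At 75 nM HEXIM1 was also higher at 4 h (0.85, SE 0.13, limma adjusted p = 0.000628), while its change at 24 h was 0.32 (limma adjusted p = 0.201). Replicate 2 of 468 nM, 24 h had the lowest mean correlation with its group (0.955), though replicate 4 was close (0.957). It was replicate 2 that was the highest of its 5 arrays for 27 of the 48 tested members (56.2%), against 26.7% of all genes tested. A DMSO array did the same at 24 h: replicate 1, of the same run of sample title codes, was highest in its group for 29 of the 48 (60.4%), against 33.8% of all genes.

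At 468 nM for 24 h, 21 of the 48 tested members were called changed (43.8%; limma, Benjamini-Hochberg adjusted p below 0.05 over 9285 genes), where 45.6% of all genes tested were called, so the share was close to the background. Without replicate 2 of that group, 18 members were called, 12 higher and 6 lower. The share of all genes called in that refit is not given here. DMSO replicate 1, which was also high for many members, stayed in it, so the refit changed only the treated side. With all arrays the split by direction was 16 higher and 5 lower, where 20.4% of all genes were higher and 25.1% lower. By class, 8 of 15 demethylases were higher and 0 lower (KDM4C among them passed the filter only through this group, so it could be called in that direction alone, and 7 were higher without it), 2 of 17 methyltransferases were higher and 4 lower, 3 of 8 acetyltransferases were higher and 1 lower, and 3 of 8 tested deacetylases were higher and 0 lower. The median log2 change was 0.44 for demethylases, -0.06 for methyltransferases, 0.19 for acetyltransferases and 0.01 for deacetylases, beside -0.02 for all genes tested. With arrays shifted to hold 6 reference genes level, these medians were 0.37, -0.12, 0.12 and -0.05, so the deacetylase median turned sign, and the all-gene median was -0.08. Called demethylases then numbered 4 higher and 0 lower, where 1149 of all 9285 genes were higher and 2200 lower. Within the 4 runs of sample title codes that hold both groups, all 21 called members had differences of 1 sign in every run, as did 5 of the 27 not called. At 468 nM and 4 h this held for all 7 called members and for 17 of the 41 not called. The calls came from these same arrays, so the signs give them no separate support. At 24 h the shift ended the calls of KDM1A, KDM2A, KDM4C, KDM7A, KMT2C, KAT6A and EP300 (limma adjusted p from 0.055 to 0.388). A fit of only the groups compared ended those of KDM1A, KDM2A, KDM4C, KMT2C, KAT2A, KAT6A, EP300 and HDAC6 (0.0503 to 0.148), and a test with no filter on dim genes ended those of KDM1A, KDM2A, KDM4C and EP300 (0.0668 to 0.0996). Of members not called, KDM8 (0.45, limma adjusted p = 0.0377) and SETD7 (-0.47, limma adjusted p = 0.00592) were called with the run as a block, and KDM6B (0.60, adjusted p = 0.04) and KDM8 (0.53, adjusted p = 0.0224) with repeated quantile normalization.

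After 4 h at 468 nM, 7 of the 48 members were called (14.6%), where 10.9% of all genes were. KDM3A and SIRT1 were higher (3.96% of all genes were higher), and KMT2E, SETDB1, NSD1, DOT1L and SUV39H1, all methyltransferase family genes, were lower (6.95% of all genes were lower). The class medians were 0.05 for demethylases, -0.18 for methyltransferases, -0.03 for acetyltransferases and 0.07 for deacetylases, beside -0.03 for all genes, and with the shift to reference genes they were -0.08, -0.31, -0.16 and -0.06 beside -0.16, which turns the sign of the demethylase and deacetylase medians. At 75 nM the changes were few: SIRT1 was the 1 member called at 4 h (higher, where 0.679% of all genes were called, 0.334% higher and 0.345% lower). At 75 nM and 24 h, 0 of 48 were called, where 0.872% of all genes were called by limma (0.398% higher and 0.474% lower). An unadjusted limma p below 0.05 was found there for 4 of the 48 members and for 1478 of all 9285 genes tested. Of the members called at 468 nM, 4 were called at both times in the same direction (KDM3A, SIRT1, DOT1L and SUV39H1), 3 at 4 h only and 17 at 24 h only. The shares of all genes in these sets were not counted. Among all genes too, more were called at 24 h (45.6%) than at 4 h (10.9%), so the larger 24 h set is not particular to the members. Of the 4 h calls at 468 nM, that of KMT2E (adjusted p = 0.137) and that of NSD1 (0.0723) ended with no filter on dim genes, and that of NSD1 (0.0785) with only the groups compared, by limma. KDM4C was called there with the run as a block (0.37, limma adjusted p = 0.0485) and with repeated quantile normalization (0.44, adjusted p = 0.0322). The comparisons of a time share their DMSO arrays.

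Members whose arrays did not overlap between groups were counted as well. At 468 nM and 24 h, KDM1B, KDM3A, KDM4A, KDM5B, KDM7A, EZH1, KAT2B, HDAC3 and SIRT1 lay above all DMSO arrays (9 of 48, where 13% of all genes did), and SUV39H1 and SUV39H2 lay below (2 of 48, where 17.1% did, 30.1% in either direction). For 468 nM at 4 h the 2 members called higher lay above (5.26% of all genes) and the 5 called lower lay below (8.25%, 13.5% in either direction). At 75 nM, KDM3A and SIRT1 lay above DMSO at 4 h (1.37% of all genes, with 2.35% below and 3.72% in either direction) and SIRT1 did at 24 h (2.9% of all genes, with 4.18% below and 7.08% in either direction). Between the doses at 4 h, SIRT1 lay above (1.82%) and SETDB1 and KAT5 below (2.49%, 4.31% in either direction). Between the doses at 24 h, the same members as against DMSO lay apart except that KDM4C was added and SIRT1 overlapped (8.01% of all genes above, 10.3% below and 18.3% in either direction). KDM4C passed the filter only through its 468 nM, 24 h arrays, so it could enter this count only as lying above. In DMSO, 24 h against 4 h, KDM4C and HDAC1 lay above (6.49%) and SETD1A, DOT1L, SUV39H1 and SIRT1 below (6.65%, 13.1% in either direction).

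**Figure D1:**
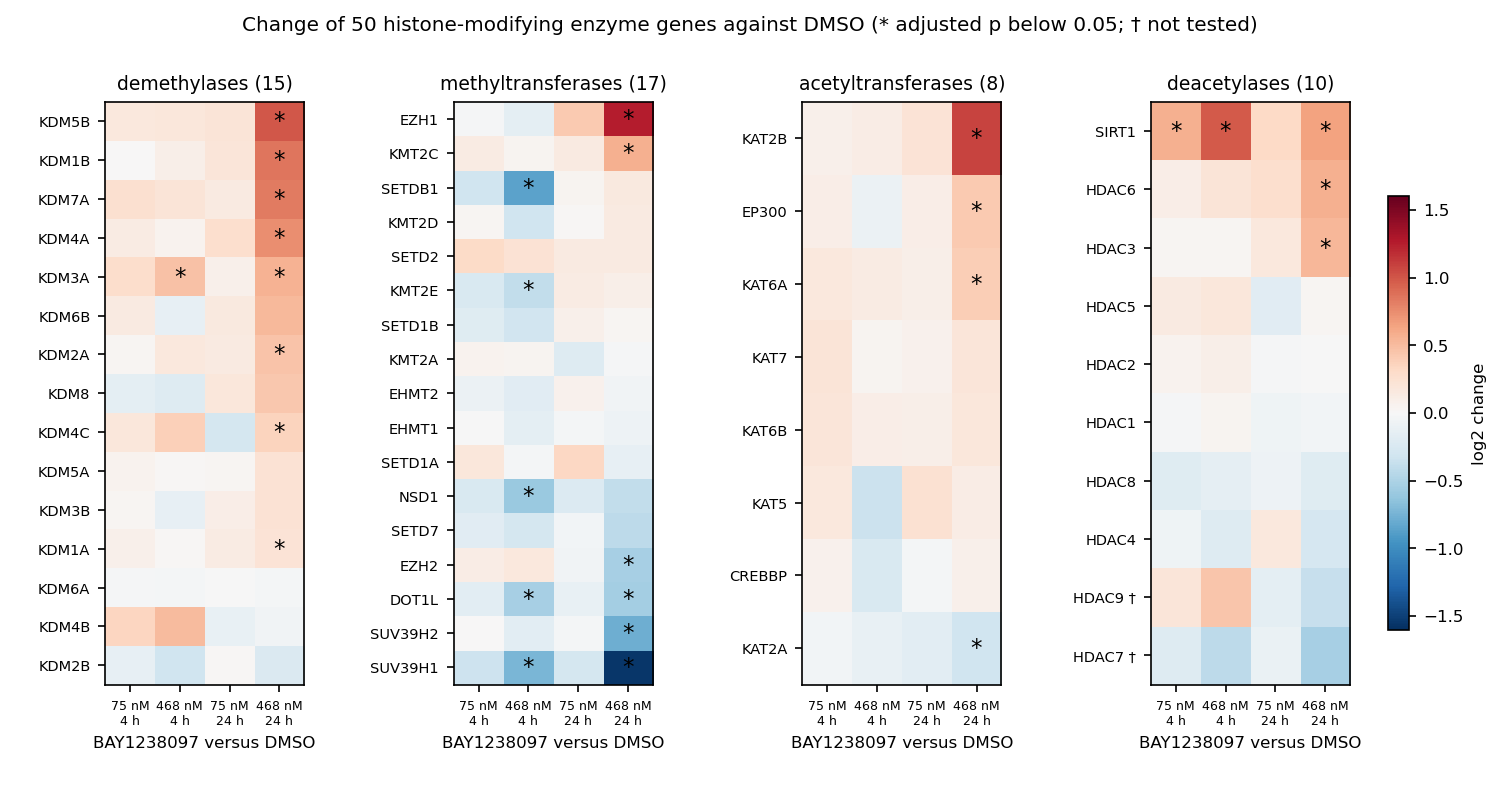
Heat maps of the log2 change against DMSO of all 50 genes (rows, by class, ordered by the 468 nM, 24 h change) at each dose and time (columns). Red is higher and blue lower than DMSO, a star marks a limma adjusted p below 0.05, and a dagger marks HDAC7 and HDAC9, which were not tested. The 468 nM, 24 h column holds 21 of the stars, and the 75 nM, 24 h column holds 0.

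**Figure D2:**
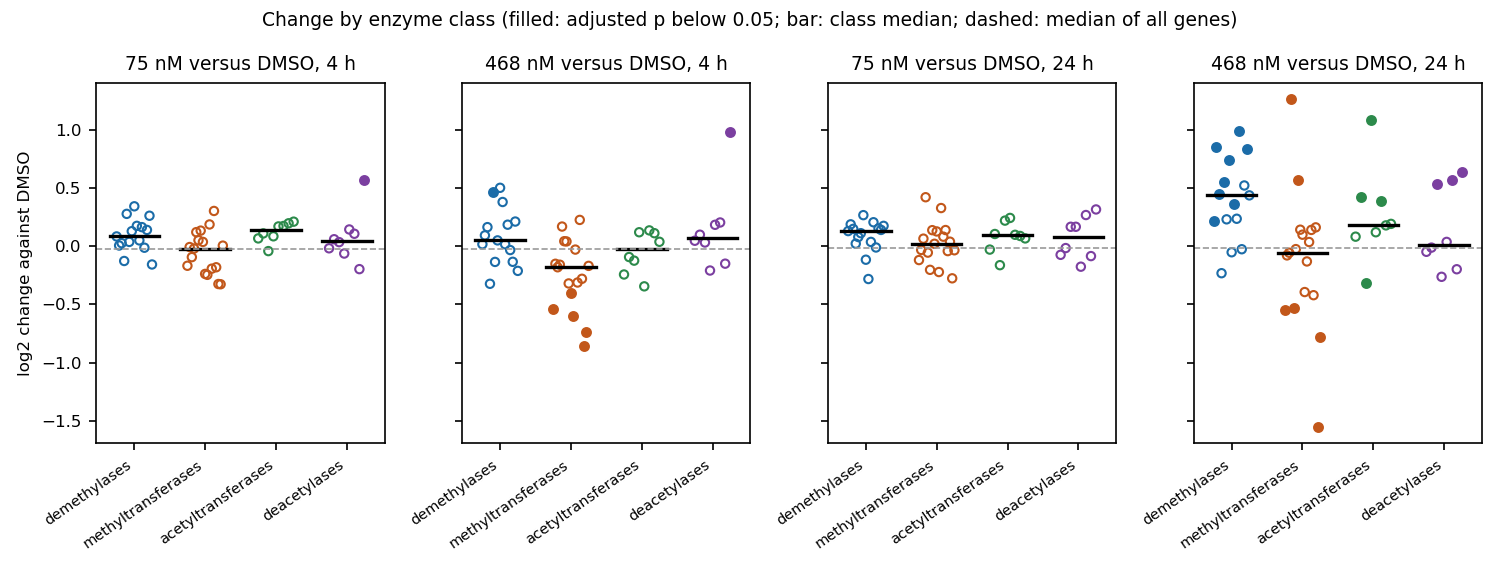
Log2 change against DMSO of the 48 tested members (points, filled where called) by class in each comparison, with the class median as a bar and the median of all 9285 genes as a dashed line. The demethylase median at 468 nM and 24 h is 0.44 and the methyltransferase median is -0.06. With the shift to reference genes, the deacetylase median at 24 h and the demethylase and deacetylase medians at 4 h, all at 468 nM, turn below 0.

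The promoters of the 3 largest rises and of the 3 largest falls with a RefSeq entry, among members whose 24 h call held in every alternative run, are printed so that genes that moved in opposite directions can be read side by side. Each line gives the 250 bases before the first listed RefSeq start (GRCh38.p14), 5′ to 3′ on the gene's strand, and capitals mark the motifs searched. EZH1 is on chr17:42745041-42745290 (minus strand), KAT2B on chr3:20040196-20040445 (plus), KDM5B on chr1:202808422-202808671 (minus), SUV39H1 on chrX:48695304-48695553 (plus), SUV39H2 on chr10:14878616-14878865 (plus) and EZH2 on chr7:148884292-148884541 (minus).
EZH1: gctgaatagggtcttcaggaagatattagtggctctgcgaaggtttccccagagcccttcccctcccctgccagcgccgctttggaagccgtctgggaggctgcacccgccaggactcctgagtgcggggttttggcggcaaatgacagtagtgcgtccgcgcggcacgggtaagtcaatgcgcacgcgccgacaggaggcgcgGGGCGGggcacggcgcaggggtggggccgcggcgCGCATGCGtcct
KAT2B: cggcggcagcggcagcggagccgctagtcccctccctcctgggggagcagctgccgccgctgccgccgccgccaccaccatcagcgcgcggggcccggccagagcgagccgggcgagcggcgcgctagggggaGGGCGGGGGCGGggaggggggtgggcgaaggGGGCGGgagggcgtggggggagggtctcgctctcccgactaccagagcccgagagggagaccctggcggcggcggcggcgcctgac
KDM5B: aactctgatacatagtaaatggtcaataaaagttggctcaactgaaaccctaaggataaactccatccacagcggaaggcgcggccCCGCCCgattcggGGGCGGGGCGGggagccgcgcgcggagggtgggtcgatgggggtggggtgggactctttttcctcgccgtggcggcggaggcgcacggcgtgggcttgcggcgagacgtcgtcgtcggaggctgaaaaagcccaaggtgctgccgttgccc
SUV39H1: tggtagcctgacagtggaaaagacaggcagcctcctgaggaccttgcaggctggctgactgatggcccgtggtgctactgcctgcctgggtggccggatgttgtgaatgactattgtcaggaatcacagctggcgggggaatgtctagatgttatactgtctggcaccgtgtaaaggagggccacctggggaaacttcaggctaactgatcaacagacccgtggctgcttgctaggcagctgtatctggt
SUV39H2: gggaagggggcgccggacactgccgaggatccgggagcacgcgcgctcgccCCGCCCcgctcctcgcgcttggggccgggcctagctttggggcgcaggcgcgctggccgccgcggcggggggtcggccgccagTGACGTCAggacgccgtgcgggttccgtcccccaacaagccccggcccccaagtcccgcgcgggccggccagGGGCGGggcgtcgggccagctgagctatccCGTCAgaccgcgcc
EZH2: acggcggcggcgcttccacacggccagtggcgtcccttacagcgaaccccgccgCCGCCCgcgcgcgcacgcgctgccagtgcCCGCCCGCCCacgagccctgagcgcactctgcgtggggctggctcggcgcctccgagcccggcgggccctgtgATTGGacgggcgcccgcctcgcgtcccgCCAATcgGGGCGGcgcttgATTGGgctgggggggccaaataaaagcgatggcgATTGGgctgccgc

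Motifs were searched on both strands in the 46 members with an entry and in all 27195 genes of the table, whether or not these were tested on the arrays. The GC box GGGCGG was in 29 of the 46 member promoters (63.0%) and in 42.4% of all. The E-box CACGTG, which MYC family proteins and MITF can bind, was in 9 of 46 (19.6%) and in 6.5% of all. The CCAAT box was in 10 (21.7%; 33% of all), the CRE core TGACG in 9 (19.6%; 21.6% of all), the NRF1 motif GCATGCG in 3 (6.5%; 3.6% of all), and an E2F motif in 3 (6.5%; 9.5% of all). The E2F motif was searched in its form TTCCCGC, then as the variant TTGGCGC, then as the other variant TTCGCGC. In the printed sequences, the EZH1 line holds overlapping matches of GCATGCG close to the start, counted as 2, and 1 GC box. The EZH2 line holds 4 CCAAT boxes and 4 GC boxes of which a pair overlap, KAT2B and KDM5B hold 3 GC boxes each, SUV39H2 holds 2 GC boxes and 3 CRE cores of which a pair overlap, and the SUV39H1 line holds none of these motifs. A match is a description of the letters in this window only.

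Among the demethylases, KDM5B and KDM1B, which both act on methylated lysine 4 of histone H3 (H3K4), had the largest increases at 468 nM and 24 h. KDM5B, which removes trimethylation, read 8.85, 8.42, 7.92 and 8.69 on the DMSO arrays at 24 h, 8.62, 8.79, 8.72, 8.34 and 8.91 at 75 nM, and 9.58, 9.95, 9.39, 8.95 and 9.45 at 468 nM. Every 468 nM array lay above every DMSO and every 75 nM array, and KDM5B rose by 0.99 (SE 0.24, limma adjusted p = 0.00146), a ratio of 1.99 between mean intensities on the log scale. KDM1B, the flavin-dependent enzyme also called LSD2, read 8.40, 8.37, 8.06 and 8.41 in DMSO, 8.50, 8.43, 8.58, 8.31 and 8.68 at 75 nM and 8.99, 9.32, 9.27, 8.94 and 9.29 at 468 nM. The 468 nM arrays again did not overlap either other group, and KDM1B rose by 0.85 (SE 0.11, limma adjusted p = 1.14e-06). Its paralog KDM1A (LSD1) rose by 0.21 (SE 0.07, limma adjusted p = 0.0172), with overlapping arrays (10.00 to 10.25 in DMSO, 10.22 to 10.39 at 468 nM). The KDM1A call was lost without DMSO, 24 h replicate 1 (0.19, adjusted p = 0.0525) or replicate 4 (0.18, adjusted p = 0.0628), and with the shift to reference genes (0.15, adjusted p = 0.388).

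KDM5B also differed within groups at 4 h. It read 7.50, 8.12, 7.32 and 8.12 in DMSO, 8.34, 7.51, 8.25, 7.41 and 8.15 at 75 nM, and 8.13, 7.52, 8.38, 7.50 and 8.22 at 468 nM, so that each group held a low and a high set of arrays. The codes in the sample titles fall into 5 runs of 26, and the 6 low arrays were those of runs 2 and 4 in every group. After subtracting the group mean, those 6 arrays lay between -0.52 and -0.27 and the 8 arrays of runs 1, 3 and 5 between 0.18 and 0.43. KDM7A, a demethylase of H3K9 and H3K27, was split in the same way (-0.89 to -0.41 against 0.14 to 0.73). In all, 4 of 48 members (KDM5B, KDM7A, KAT2B and HDAC5; 8.33%) had every array of runs 2 and 4 below every other at 4 h, as 3.66% of all genes did. The reverse held at 4 h for 1 member (KMT2D; 2.08%) and for 2.16% of all genes. At 24 h 0 members had those arrays below every other, as only 0.47% of all genes did. What the runs stand for is not stated, and the split was noticed after the values were seen. At 24 h the change of KDM5B within the 4 runs that hold both groups was 0.76 to 1.10.

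KDM7A read 6.18, 6.01, 6.09 and 6.07 in DMSO at 24 h, 6.46, 6.28, 6.19, 5.82 and 6.38 at 75 nM, and 6.87, 7.32, 6.73, 6.79 and 6.88 at 468 nM. The 468 nM arrays did not overlap the others, and KDM7A rose by 0.83 (SE 0.27, limma adjusted p = 0.0128), with a change within runs of 0.70 to 1.14. With the shift to reference genes its change was 0.77 (adjusted p = 0.055).

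The KDM3 and KDM4 families, which act on methylated H3K9, gave 3 calls. KDM4A, a demethylase of trimethylated H3K9 and H3K36, read 8.70, 8.42, 8.37 and 8.63 in DMSO at 24 h, 8.63, 9.04, 8.72, 8.80 and 8.78 at 75 nM, and 9.34, 9.17, 9.34, 9.15 and 9.36 at 468 nM. No 468 nM array overlapped the DMSO or 75 nM arrays, and KDM4A rose by 0.74 (SE 0.09, limma adjusted p = 2.08e-07). KDM3A, which removes mono- and dimethylation and is a known hypoxia-responsive gene, moved at both times. At 4 h it read 7.03, 6.81, 7.02 and 6.89 in DMSO and 7.29, 7.43, 7.25, 7.69 and 7.35 at 468 nM, without overlap, a rise of 0.47 (SE 0.11, limma adjusted p = 0.00342). At 24 h it read 6.91, 6.64, 6.83 and 6.50 in DMSO and 7.29, 7.49, 7.18, 7.28 and 7.12 at 468 nM, again without overlap, a rise of 0.56 (SE 0.11, limma adjusted p = 0.000119). The 4 h call was lost with the shift to reference genes (0.33, adjusted p = 0.152).

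KDM4C, the third of these, needs care because it passed the filter only through the 468 nM, 24 h group (4 of its 5 arrays were above 5 and no other array was), so that its call had to be of a rise. Its values there were 5.13, 5.28, 5.31, 4.73 and 5.20, against 4.62, 4.95, 4.69 and 4.82 in DMSO, a change of 0.36 (SE 0.14, limma adjusted p = 0.034) with overlapping arrays. The call was lost without any of 468 nM replicates 1, 2, 3 or 5 or DMSO replicates 1 or 3 (changes of 0.31 to 0.36, adjusted p from 0.051 to 0.0986). KDM4B, of the same family, gave 0.50 at 4 h (adjusted p = 0.102) and -0.05 at 24 h (adjusted p = 0.846) at 468 nM. KDM3B gave 0.23 at 24 h (adjusted p = 0.0859).

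Of the demethylases of H3K36, KDM2A rose by 0.45 at 468 nM and 24 h (SE 0.16, limma adjusted p = 0.0231), from 7.57, 7.19, 7.19 and 7.01 in DMSO to 7.53, 8.17, 7.51, 7.38 and 7.86, with 1 DMSO array inside the range of the treated ones. Its call was lost without 468 nM replicate 2 (0.33, adjusted p = 0.0828) or replicate 5 (0.41, adjusted p = 0.0533) and without DMSO replicate 2, 3 or 4 (0.37 to 0.43, adjusted p from 0.0523 to 0.0826). Its paralog KDM2B gave -0.23 (adjusted p = 0.24). KDM6A and KDM6B, which remove trimethylation of H3K27 and so oppose EZH2, were not called: KDM6A changed by -0.03 (95% interval -0.31 to 0.26) and KDM6B by 0.52 (0.03 to 1.02, adjusted p = 0.0797), which repeated quantile normalization turned into a call. KDM5A (0.24, adjusted p = 0.146) and KDM8 (0.44, adjusted p = 0.07) were not called either, though KDM8 was with repeated quantile normalization or the run as a block.

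Among the methyltransferases, the SUV39 pair, which write trimethylation of H3K9 in heterochromatin, had the largest falls. SUV39H1 read 7.52, 7.43, 7.26 and 7.52 in DMSO at 4 h, 7.12, 7.43, 6.95, 7.14 and 6.90 at 75 nM, and 6.59, 6.94, 6.46, 6.83 and 6.67 at 468 nM. At 24 h it read 6.66, 7.14, 6.86 and 6.79 in DMSO, 6.50, 6.22, 6.72, 6.82 and 6.68 at 75 nM, and 5.36, 4.77, 4.91, 5.73 and 5.77 at 468 nM. The 468 nM arrays lay below every DMSO array at both times. SUV39H1 fell by 0.73 at 4 h (SE 0.17, limma adjusted p = 0.00501) and by 1.55 at 24 h (SE 0.17, limma adjusted p = 7.87e-08), which is a ratio to DMSO of 0.601 and 0.341. The fall was larger at 24 h by 0.82 (interaction, SE 0.24, limma adjusted p = 0.0156), a call lost with no filter on dim genes (adjusted p = 0.0542).

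SUV39H2 read 6.01, 5.89, 5.98 and 5.42 in DMSO at 24 h and 5.33, 5.05, 4.27, 5.41 and 5.15 at 468 nM. The groups did not overlap, though the lowest DMSO array and the highest treated one were next to each other, and SUV39H2 fell by 0.78 (SE 0.18, limma adjusted p = 0.000691). At 4 h its change was -0.17 (adjusted p = 0.659). The difference between the times was not called (-0.61, adjusted p = 0.0727), but was with the run as a block (limma adjusted p = 0.0411).

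SETDB1, which also writes H3K9 trimethylation and is known for silencing endogenous retroviruses, moved early and not late. It read 6.60, 6.22, 6.46 and 6.55 in DMSO at 4 h, 6.14, 6.07, 6.05, 6.15 and 6.25 at 75 nM, and 5.63, 5.50, 5.61, 5.49 and 5.78 at 468 nM. The 468 nM arrays lay below every array of both other groups, and SETDB1 fell by 0.85 against DMSO (SE 0.10, limma adjusted p = 1.04e-06) and by 0.53 against 75 nM (SE 0.09, limma adjusted p = 0.00151). At 24 h it read 6.64, 6.59, 6.50 and 6.38 in DMSO and 6.72, 6.61, 6.66, 6.66 and 6.79 at 468 nM, a change of 0.16 with a 95% interval of -0.04 to 0.37 (adjusted p = 0.19). The effect at 24 h exceeded that at 4 h by 1.02 (SE 0.14, limma adjusted p = 1.52e-05). The enzymes that write mono- and dimethylation of the same lysine, EHMT1 (-0.08, 95% interval -0.33 to 0.18) and EHMT2 (-0.06, -0.31 to 0.20), were not called at 24 h. EHMT2 was the 1 member with several probe sets (7), whose changes in that comparison lay between -0.10 and -0.05.

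The catalytic subunits of the Polycomb repressive complex, which write methylation of H3K27, moved in opposite directions. EZH1 read 7.03, 6.63, 6.62 and 7.06 in DMSO at 24 h, 7.003, 7.10, 7.08, 7.34 and 7.75 at 75 nM, and 8.02, 8.12, 8.13, 7.88 and 8.34 at 468 nM. All 5 arrays at 468 nM were above all others of that time, and EZH1 rose by 1.26 (SE 0.14, limma adjusted p = 7.88e-08), a ratio of 2.40. EZH2, the form associated with proliferating cells, read 8.39, 8.58, 8.79 and 8.49 in DMSO and 7.85, 7.90, 7.83, 8.61 and 7.94 at 468 nM. Replicate 4 at 468 nM lay inside the DMSO range and the other 4 lay below it, and EZH2 fell by 0.54 (SE 0.15, limma adjusted p = 0.00434). At 4 h EZH1 read 6.58, 6.69, 6.62 and 6.45 in DMSO and 6.36, 6.59, 6.16, 6.61 and 6.42 at 468 nM (-0.16, adjusted p = 0.582), and EZH2 gave 0.17 (adjusted p = 0.577). The effect differed between the times for both, by 1.42 for EZH1 (SE 0.20, limma adjusted p = 1.58e-05) and by -0.70 for EZH2 (SE 0.21, limma adjusted p = 0.015), the latter lost with no filter on dim genes (adjusted p = 0.055).

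DOT1L, the methyltransferase of H3K79, was lower at both times. It read 7.21, 7.48, 7.27 and 7.43 in DMSO at 4 h and 6.94, 6.58, 6.73, 6.83 and 6.99 at 468 nM, without overlap, a fall of 0.54 (SE 0.14, limma adjusted p = 0.00957). At 24 h it read 7.18, 6.94, 7.01 and 7.17 in DMSO and 6.71, 6.94, 6.14, 6.62 and 6.20 at 468 nM, with 1 array touching the DMSO range, and the fall was 0.55 (SE 0.14, limma adjusted p = 0.00189). NSD1, a writer of H3K36 dimethylation, read 6.77, 6.79, 6.66 and 6.67 in DMSO at 4 h and 6.22, 5.62, 6.55, 6.49 and 5.74 at 468 nM, below every DMSO array, and fell by 0.60 (SE 0.17, limma adjusted p = 0.0218). The NSD1 call was lost without 468 nM replicate 2 or 5 or DMSO replicate 1 or 2 (-0.58 to -0.47, adjusted p from 0.0585 to 0.0743), and at 24 h the change was -0.39 (adjusted p = 0.0618). SETD2, the writer of H3K36 trimethylation, was not called (0.23 at 4 h, 0.14 at 24 h).

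The KMT2 and SETD1 genes, most of which encode methyltransferases of H3K4, gave few calls. KMT2C rose by 0.57 at 468 nM and 24 h (SE 0.18, limma adjusted p = 0.0134), from 8.60, 7.84, 8.26 and 8.34 in DMSO to 8.67, 9.62, 8.65, 8.61 and 8.59. Treated replicate 2 stood far above the rest, and the lowest treated array was just below the highest DMSO array. The call was lost without 468 nM replicate 2 (0.37, adjusted p = 0.0506) or DMSO replicate 2 (0.43, adjusted p = 0.076). KMT2E, a family member with no established methyltransferase activity, read 8.22, 8.23, 8.26 and 7.98 in DMSO at 4 h and 7.79, 7.69, 7.69, 7.97 and 7.75 at 468 nM, without overlap by the narrow margin of 7.97 against 7.98, a fall of 0.40 (SE 0.13, limma adjusted p = 0.0429). That call was lost without any of 468 nM replicates 1, 2, 3 or 5 or DMSO replicates 1, 2 or 3 (-0.40 to -0.37, adjusted p from 0.0689 to 0.118). KMT2A (-0.03, 95% interval -0.46 to 0.41), KMT2D (0.14, -0.35 to 0.63), SETD1B (0.04) and SETD7, which monomethylates the same lysine (-0.42, adjusted p = 0.0868), were not called at 24 h. SETD7 was called with the run as a block, and its differences within runs were -0.73 to -0.12.

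**Figure D3:**
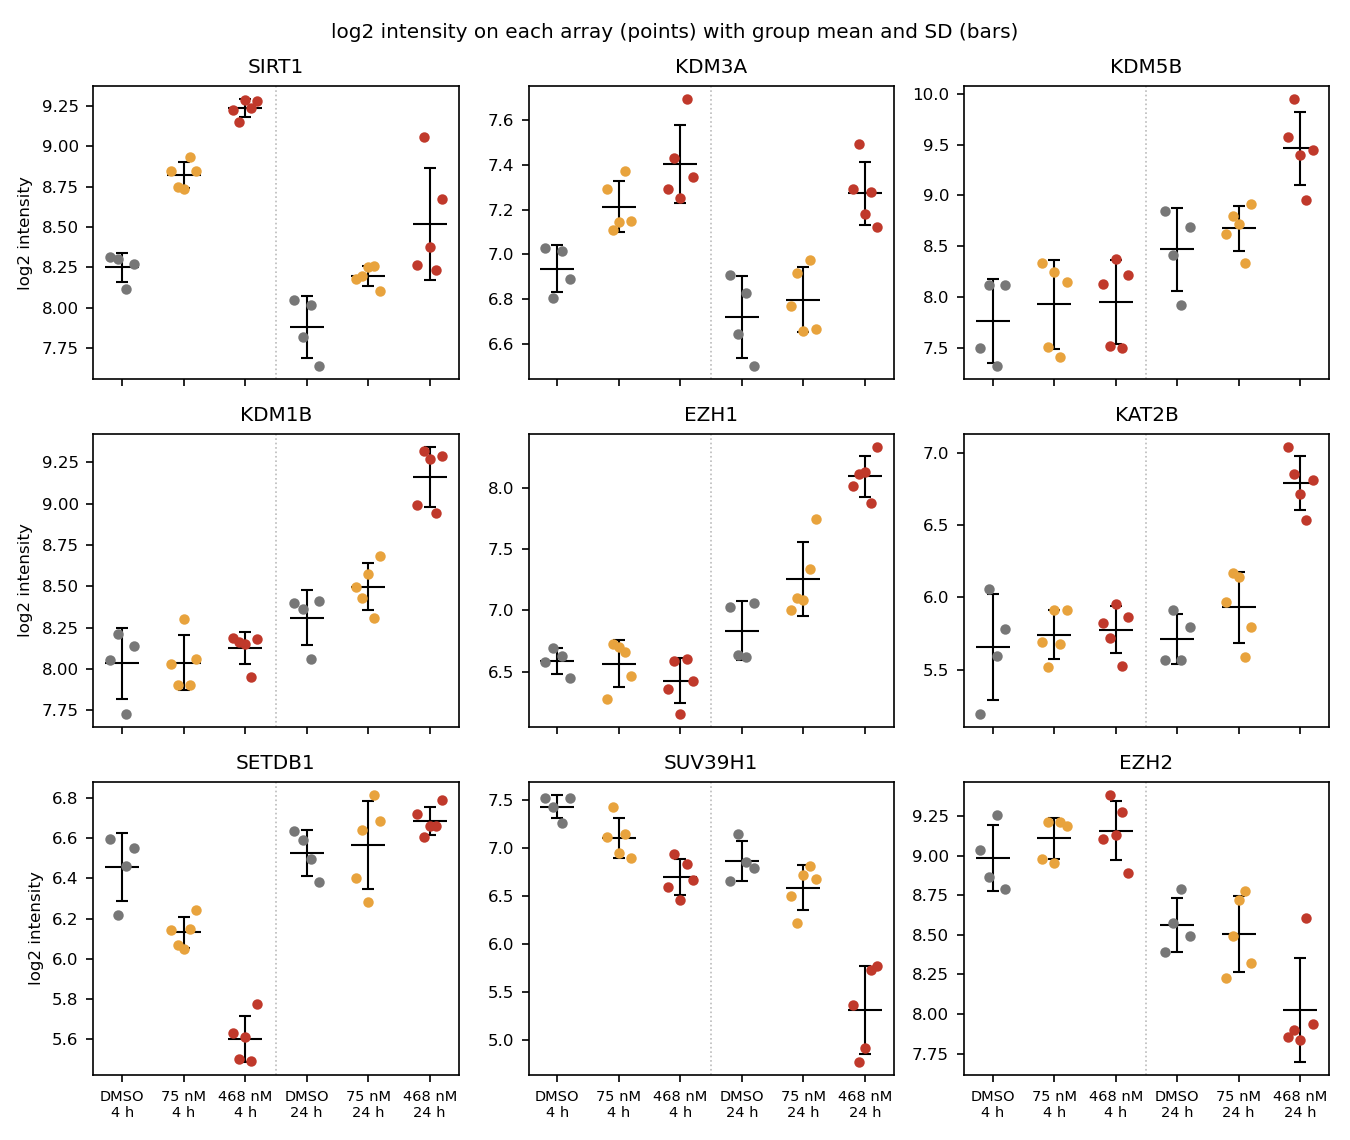
Log2 intensity of 9 members on every array (points), with the mean and SD of each group (bars), for DMSO, 75 nM and 468 nM at 4 h (left of the dotted line) and 24 h (right). SIRT1 steps up with dose at 4 h, SETDB1 is low at 4 h and 468 nM only, EZH1 and KAT2B are high at 24 h and 468 nM, SUV39H1 is low at 468 nM at both times, and KDM5B shows a low and a high set of arrays in each group at 4 h.

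Among the acetyltransferases, KAT2B (PCAF) and KAT2A (GCN5), alternative catalytic subunits of SAGA-type complexes, moved in opposite directions at 468 nM and 24 h. KAT2B read 5.57, 5.91, 5.57 and 5.79 in DMSO, 5.97, 6.17, 6.14, 5.58 and 5.79 at 75 nM, and 7.04, 6.86, 6.72, 6.53 and 6.81 at 468 nM. The 468 nM arrays were above all others, and KAT2B rose by 1.08 (SE 0.15, limma adjusted p = 1.61e-06), a ratio of 2.12. At 4 h its change was 0.12 (95% interval -0.18 to 0.42), and the difference between the times was 0.96 (SE 0.21, limma adjusted p = 0.00151). KAT2A read 8.33, 8.12, 8.30 and 8.52 in DMSO and 8.13, 8.04, 7.83, 7.84 and 8.16 at 468 nM, with some overlap, and fell by 0.32 (SE 0.095, limma adjusted p = 0.00772). That call was lost when only the groups compared were fitted (adjusted p = 0.0765).

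The paralogs EP300 and CREBBP, coactivators recruited to enhancers, both read highest on replicate 2 at 468 nM and 24 h. That was not particular to them, since this array was highest for 27 of the 48 tested members (56.2%; 26.7% of all genes). In DMSO at 24 h both read highest on replicate 1, as did 29 of the 48 (60.4%; 33.8% of all genes). EP300 read 9.31, 8.64, 8.93 and 8.997 in DMSO at 24 h and 9.28, 10.08, 9.22, 9.18 and 9.21 at 468 nM, a rise of 0.42 (SE 0.17, limma adjusted p = 0.0379) with overlapping arrays. Without 468 nM replicate 2 the EP300 change was 0.25 (adjusted p = 0.148), and the call was also lost without DMSO replicate 2 (0.32, adjusted p = 0.155), 3 (0.41, adjusted p = 0.0744) or 4 (0.43, adjusted p = 0.059). CREBBP read 9.99, 9.20, 9.56 and 9.77 in DMSO and 9.70, 10.36, 9.53, 9.40 and 9.57 at 468 nM, and was not called (0.08, 95% interval -0.29 to 0.46). KAT6A, of the MYST family, rose by 0.39 (SE 0.12, limma adjusted p = 0.0102), from 7.71 to 8.35 in DMSO to 8.13 to 8.82, and lost its call without DMSO replicate 2 (0.28, adjusted p = 0.07). Its relatives KAT6B (0.18), KAT7 (0.19) and KAT5 (0.12) were not called.

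SIRT1, the NAD-dependent member among the deacetylases, was the 1 gene of the 50 called at 75 nM. It read 8.31, 8.30, 8.12 and 8.27 in DMSO at 4 h, 8.84, 8.75, 8.74, 8.93 and 8.84 at 75 nM, and 9.22, 9.15, 9.28, 9.23 and 9.28 at 468 nM. The 3 groups did not overlap. SIRT1 rose by 0.57 at 75 nM (SE 0.12, limma adjusted p = 0.0168) and by 0.98 at 468 nM (SE 0.12, limma adjusted p = 1.85e-06), a ratio of 1.98. The step from 75 nM to 468 nM was 0.41 (SE 0.11, limma adjusted p = 0.0475). The 75 nM call was lost without DMSO replicate 3 (0.53, adjusted p = 0.0763) or 75 nM replicate 4 (0.54, adjusted p = 0.0534), and with the shift to reference genes (0.54, adjusted p = 0.315). The call of the step between doses was lost without any 1 of the 10 arrays compared (0.39 to 0.44, adjusted p from 0.0567 to 0.114).

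At 24 h SIRT1 read 8.05, 7.82, 8.02 and 7.64 in DMSO, 8.18, 8.20, 8.25, 8.26 and 8.11 at 75 nM, and 8.27, 9.05, 8.37, 8.24 and 8.67 at 468 nM. Both doses lay above every DMSO array. SIRT1 rose by 0.64 at 468 nM (SE 0.12, limma adjusted p = 0.000104), and at 75 nM its change was 0.32 (adjusted p = 0.192). The spread at 468 nM was wider than at 4 h, with replicates 2 and 5 high. The 24 h effect minus the 4 h effect was -0.34 (adjusted p = 0.144), which was not called.

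The zinc-dependent deacetylases gave 2 calls at 468 nM and 24 h. HDAC3, the catalytic subunit of the NCOR complexes, read 7.41, 7.11, 7.29 and 7.37 in DMSO, 7.56, 7.64, 7.53, 7.25 and 7.33 at 75 nM, and 7.76, 7.79, 7.65, 8.01 and 7.92 at 468 nM. The 468 nM arrays did not overlap either group, and HDAC3 rose by 0.53 (SE 0.12, limma adjusted p = 0.000485). HDAC6, a mainly cytoplasmic enzyme that acts on tubulin, read 5.45, 5.68, 5.90 and 5.81 in DMSO and 6.78, 5.69, 6.25, 6.12 and 6.54 at 468 nM, with treated replicate 2 inside the DMSO range, and rose by 0.56 (SE 0.18, limma adjusted p = 0.0112). That call was lost when only the groups compared were fitted (adjusted p = 0.0503). HDAC1 (-0.05, 95% interval -0.21 to 0.12) and HDAC2 (-0.01, -0.22 to 0.19), which share the SIN3, NuRD and CoREST complexes, were not called, nor were HDAC4 (-0.26), HDAC5 (0.04) and HDAC8 (-0.20).

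Between the doses at 24 h, 16 members were called (10 higher and 6 lower at 468 nM), where 30.8% of all genes were called, 13.4% higher and 17.4% lower. Of these, 14 were also called against DMSO: KDM1B, KDM3A, KDM4A, KDM4C, KDM5B, KDM7A, EZH1, EZH2, DOT1L, SUV39H1, SUV39H2, KAT2B, HDAC3 and SIRT1. Here too KDM4C was tested only through its 468 nM arrays, so its direction was set by the filter. The 2 others were SETD1A, an H3K4 methyltransferase, and HDAC4, and both were lower at 468 nM than at 75 nM without a call against DMSO. SETD1A read 6.43, 6.40, 6.55, 6.78 and 6.41 at 75 nM and 6.06, 6.46, 6.01, 5.60 and 6.16 at 468 nM, a difference of -0.46 (SE 0.13, limma adjusted p = 0.00806), while against DMSO it gave 0.33 at 75 nM (adjusted p = 0.237) and -0.13 at 468 nM (adjusted p = 0.455). The SETD1A call was lost with the shift to reference genes (-0.38, adjusted p = 0.0637). HDAC4 differed by -0.43 (SE 0.15, limma adjusted p = 0.0253), and lost the call without 75 nM replicate 1 or 4 or 468 nM replicate 2, 4 or 5 (-0.41 to -0.36, adjusted p from 0.0503 to 0.0777).

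Other calls of this comparison were also lost when 1 array was left out. Without 468 nM replicate 2 the difference of SIRT1 was 0.19 (adjusted p = 0.123, from 0.32 and 0.0316) and that of KDM7A 0.59 (adjusted p = 0.0985, from 0.69 and 0.0381). The SIRT1 call was also lost without 468 nM replicate 5 or 75 nM replicate 1, 2 or 5 (0.28 to 0.32, adjusted p from 0.0507 to 0.0782), and the KDM7A call without 468 nM replicate 1 or 5 or 75 nM replicate 2, 3 or 4 (0.59 to 0.71, adjusted p from 0.0532 to 0.103). The DOT1L call was lost without 468 nM replicate 3 (-0.33, adjusted p = 0.0516, from -0.43 and 0.0123). The shift to reference genes also ended the calls of KDM7A (adjusted p = 0.0591), DOT1L (0.137), HDAC4 (0.128) and SIRT1 (0.0705), no filter those of KDM7A (0.0993), HDAC4 (0.0783) and SIRT1 (0.102), only the groups compared those of EZH2 (0.0561), DOT1L (0.0771) and SIRT1 (0.142), and repeated quantile normalization that of HDAC4 (0.0548). With the run as a block, KAT6A (0.29, limma adjusted p = 0.0231), KMT2C (0.43, 0.0248) and SETD7 (-0.38, 0.0221) were called as well. At 4 h, 2 members were called between the doses, SIRT1 higher and SETDB1 lower, where 2.56% of all genes were called, 1.13% higher and 1.43% lower.

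**Figure D4:**
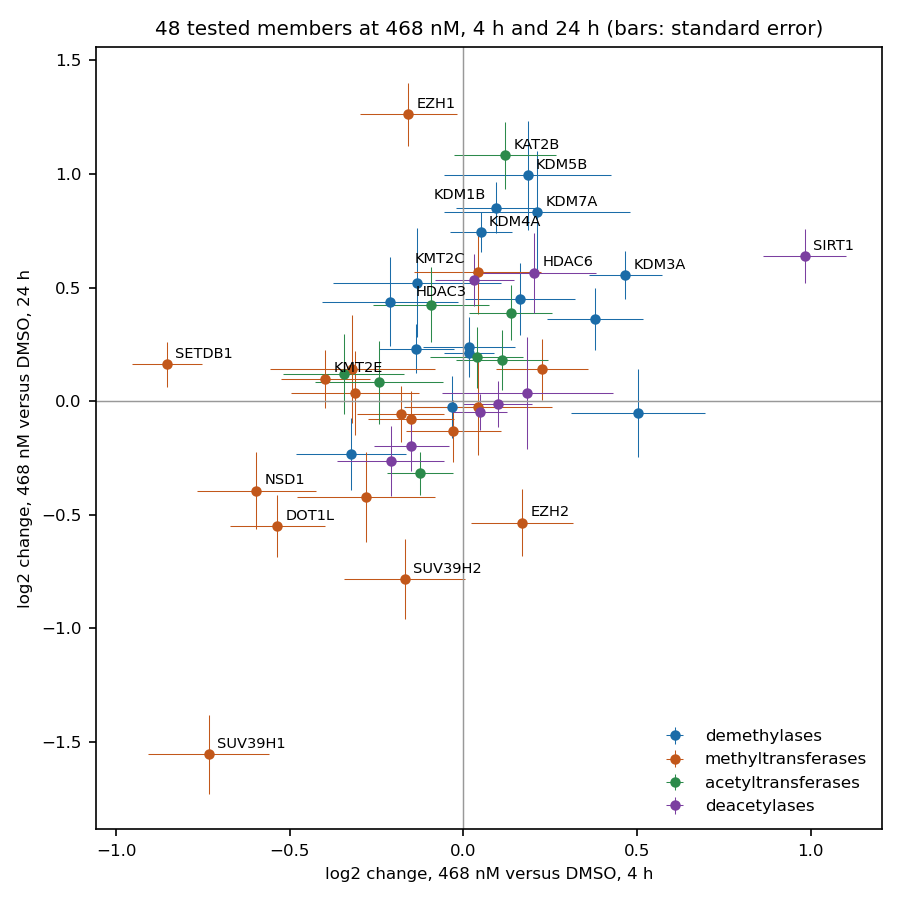
Log2 change at 468 nM against DMSO of the 48 tested members, at 4 h (horizontal axis) and 24 h (vertical axis), with standard errors as bars and colours for the class. SIRT1 and KDM3A lie in the upper right, SUV39H1 and DOT1L in the lower left, SETDB1 at the far left near 0 at 24 h, and EZH1 and KAT2B at the top near 0 at 4 h.

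The effect of 468 nM differed between 24 h and 4 h for 9 members by an interaction test, where 23.5% of all genes were called (10.8% higher and 12.7% lower). It was higher at 24 h for EZH1, SETDB1, KAT2B, KDM1B (0.76, SE 0.16, limma adjusted p = 0.0012), KDM4A (0.69, SE 0.13, limma adjusted p = 0.000246), HDAC3 (0.50, SE 0.16, limma adjusted p = 0.0266) and KMT2E (0.50, SE 0.18, limma adjusted p = 0.0465), and lower for SUV39H1 and EZH2. The HDAC3 call was lost without replicate 1 of 468 nM at 4 h, replicate 1 or 3 of DMSO at 4 h or replicate 2 of DMSO at 24 h (0.44 to 0.47, adjusted p from 0.0531 to 0.0642). The KMT2E call was lost without replicate 1, 2, 3 or 5 of 468 nM or replicate 1, 2 or 3 of DMSO at 4 h, or replicate 1, 2 or 3 of 468 nM or replicate 2 or 3 of DMSO at 24 h (0.41 to 0.50, adjusted p from 0.0605 to 0.102). Both were also lost with no filter on dim genes (0.0955 for HDAC3 and 0.142 for KMT2E) and with the shift to reference genes (0.0527 and 0.0924). Most of the demethylase rises seen at 24 h were small at 4 h, when KDM1B gave 0.09, KDM4A 0.05, KDM5B 0.18 and KDM7A 0.21, yet for KDM5B (0.81, adjusted p = 0.0852) and KDM7A (0.62, adjusted p = 0.246) the difference between the times was not called. With the run as a block that of KDM5B was called (0.81, limma adjusted p = 0.0162).

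In DMSO, 24 h against 4 h, 2 members were called: KDM4C was higher (0.62, SE 0.15, limma adjusted p = 0.0152) and SETD1A lower (-0.55, SE 0.14, limma adjusted p = 0.0263), where 5.23% of all genes were called, 2.63% higher and 2.61% lower. KDM4C read 3.96, 4.59, 4.17 and 3.89 at 4 h and 4.62, 4.95, 4.69 and 4.82 at 24 h, all below the filter level of 5 at both times, and it was tested only because of its 468 nM, 24 h arrays. SETD1A read 6.69, 6.97, 6.75 and 6.56 at 4 h and 6.24, 5.95, 6.04 and 6.52 at 24 h. Neither pair of groups overlapped. The KDM4C call was lost without replicate 1 at 4 h or 2 at 24 h (0.55 and 0.56, adjusted p = 0.0597 and 0.057), and the SETD1A call without replicate 1, 2 or 3 at 4 h or 2 or 3 at 24 h (-0.57 to -0.48, adjusted p from 0.0555 to 0.0919). With the shift to reference genes the median of all genes in this comparison moved to 0.27, SETD1A gave -0.29 (adjusted p = 0.212), and 20 of the 48 members turned sign, none of them called. Under that shift 8 of the 48 members were called, with EZH1, HDAC1, HDAC8, KAT6B, KDM1B, KDM4A and KDM5B added as higher (0.42 to 0.97, limma adjusted p from 0.0172 to 0.0418). Of all 9285 genes tested, 1499 were then higher and 37 lower, so the member count was close to the background. With the run as a block 6 were called, with KDM1B (0.28), KDM4A (0.29) and KDM5B (0.70) added as higher and EZH2 (-0.42) as lower, at limma adjusted p from 0.0178 to 0.0444. The share of all genes called in that fit is not given here.

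Of the 48 tested members, 26 were called in at least 1 comparison and 22 in none. The matching share of all genes was not counted, so these counts do not set the members apart. In the comparison of 468 nM with DMSO at 24 h alone, 45.6% of all genes were called. The 22 were KDM2B, KDM3B, KDM4B, KDM5A, KDM6A, KDM6B, KDM8, KMT2A, KMT2D, SETD1B, SETD2, SETD7, EHMT1, EHMT2, KAT5, KAT6B, KAT7, CREBBP, HDAC1, HDAC2, HDAC5 and HDAC8. Their changes against DMSO lay between -0.42 and 0.52 over the 4 comparisons.

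Related enzymes outside the 50 were counted in the same fit at 468 nM and 24 h, where 45.6% of all genes were called. The share called was 45% of other lysine enzymes, 71.4% of the 7 arginine methyltransferases, 40% of other acetyl enzymes and 40.4% of partner subunits, so that all but the small arginine list lay near or below the background. Of 20 tested genes listed as other lysine methyltransferases and demethylases, 2 were higher and 7 lower. The lower ones included JMJD6 (-1.13, SE 0.17, limma adjusted p = 5.5e-06), which has no established lysine demethylase activity. KMT5A, which monomethylates H4K20, was among them too (-0.61, SE 0.10, limma adjusted p = 1.43e-05). Of 7 protein arginine methyltransferases, 2 were higher and 3 lower, with PRMT2 at 0.68 and PRMT5 at -0.64. Of 10 other acetyltransferases and deacetylases, 1 was higher and 3 lower, with NCOA1 at 0.69 and CLOCK at -0.44. Of 57 partner subunits, 10 were higher and 13 lower. These included PHF19, an accessory subunit of the complex that holds EZH1 or EZH2 (-1.83, SE 0.21, limma adjusted p = 1.61e-07), JADE1 and ING4, subunits of complexes of MYST acetyltransferases (-1.39 and 1.11), MLLT3, which binds DOT1L (1.001), and CHD3 of the NuRD complex (-0.90).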

How the data were processed

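RNA of CHL-1 cells was measured on 28 arrays in 6 groups. The authors deposited 1 table of linear intensities for 53617 probe sets, normalized with RMA per the submitters' processing notes, and the genome build is not given in the sources used here. Because RMA puts arrays on a common distribution, changes are relative to that distribution and not absolute. Probe sets with 1 gene symbol (23871) were kept, named through the gene ID where possible, and each gene was taken from its probe set of highest mean, which gave 22357 genes. Intensities were transformed to log2, genes above 5 on at least 4 arrays were kept (9285), and 6 group means were fitted with limma 3.58.1 in R 4.3.3 on all arrays (22 residual and 3.84 prior degrees of freedom). P-values were adjusted by Benjamini-Hochberg over all genes tested, and an adjusted p below 0.05 was a call. The number of arrays per group, 4 or 5, limits the precision. The fit was tested on simulated data. Tables were prepared with Python 3.11.15 and plotted with matplotlib 3.10.9.

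Array values are given for members called in at least 1 comparison, largest changes first, and members called nowhere are named with fewer values. From the other lists, the 5 called genes of largest change were open to naming. The members and lists were chosen with earlier results of these data known. Alternatives covered the filter, the normalization, the probe set rule, the arrays in the fit, a block, the variance prior and leaving out each array. Promoter sequences came from RefSeq (GRCh38.p14), where 46 of the 50 genes matched.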

Additional observations from a re-analysis of the deposited data

Results flagged for a closer look

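In 18 of 288 groups of 4 or 5 arrays of a member, 1 array lay far from the others, where chance gives about 1 group in 20. Of these, 10 were in groups of the 26 members called in at least 1 comparison. At 468 nM and 24 h, replicate 2 was high for KDM7A (log2 intensity 7.32), KMT2A (7.97), KMT2C (9.62), SETD2 (7.15) and EP300 (10.08), and replicate 4 was high for EZH2 (8.61). At 468 nM and 4 h, replicate 4 was low for KDM1B (7.95). At 75 nM and 4 h, replicate 4 was far from the others for KDM2B (5.39) and KDM8 (4.73), and replicate 2 for HDAC1 (9.34). At 75 nM and 24 h, replicate 3 was low for KDM2A (7.06). In DMSO at 4 h, replicate 4 was high for KDM4A (8.40) and low for KMT2C (8.01) and KMT2E (7.98). In DMSO at 24 h, replicate 3 was low for KDM1B (8.06), and replicate 1 stood apart for KDM5A (7.80) and SETD1B (7.20), as did replicate 4 for HDAC8 (6.13).

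The effect of 468 nM differed between 24 h and 4 h, by the interaction term of limma, for 9 of the 48 tested members (18.8%). This was below the share of all genes called (23.5%). The 24 h effect minus the 4 h effect was 1.42 for EZH1, 1.02 for SETDB1, 0.96 for KAT2B, 0.76 for KDM1B, 0.69 for KDM4A, 0.50 for HDAC3 and 0.50 for KMT2E on the log2 scale. It was -0.82 for SUV39H1 and -0.70 for EZH2.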

How the results depend on the processing

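The 58 calls of members were refitted under 1065 combinations of call and alternative, of which 927 kept the call, 138 lost it and 0 reversed. At 468 nM and 24 h, 12 of 21 calls held under every alternative run, and 4 of 7 did at 4 h. With no filter on dim genes, the calls numbered 0 at 75 nM and 4 h (1 as reported), 1 between doses at 4 h (2 as reported), 5 for the difference between times (9 as reported) and 0 in DMSO over time (2 as reported). With the shift to reference genes these were 0 at 75 nM and 4 h, 1 between doses at 4 h and 8 in DMSO over time. With only the groups compared in the fit they were 13 at 468 nM and 24 h and 0 in DMSO over time. The filter at log2 above 7 left 1 call between doses at 4 h, and an intensity trend with a robust prior left 1 in DMSO over time. The cause was not tested. Except for the shift to reference genes, the numbers of all genes called in these refits are not given here. The counts therefore do not set the members apart from a general change in calls.

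Leaving out 1 array at a time gave 0 to 1 calls at 75 nM and 4 h, 1 between doses at 4 h, 18 to 23 at 468 nM and 24 h and 0 to 3 in DMSO over time. Deviations from the group mean correlated at 0.20 on average between arrays of the same run and time (26 pairs, lowest 0.015), at 0.04 between arrays of the same run at different times (40 pairs, lowest -0.13) and at -0.03 between arrays of different runs. Since not every pair of a run was over 0.1, and the labels do not say what a run is, the runs were not taken as a pairing, though arrays of a run and time did deviate together. With the run as a replicate block, calls were 1 between doses at 4 h and 6 in DMSO over time, and the block lost 1 of the 58 calls. It gave 8 calls at 468 nM and 4 h, 23 at 468 nM and 24 h, 19 between doses at 24 h and 11 for the difference between times. The shares of all genes called in the refits with a block or without 1 array are not given here. These counts therefore do not set the members apart from a general change in calls.

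The shift to reference genes moved the median of all genes to -0.16 at 468 nM and 4 h, where 150 genes were then higher and 774 lower (368 and 645 as reported). At 468 nM and 24 h the split was 1149 and 2200 (1896 and 2335 as reported), at 75 nM and 24 h it was 5 and 90 (37 and 44 as reported), and between doses at 4 h it was 33 and 113 (of 238 calls as reported, 133 were lower). Between doses at 24 h it was 1146 and 929 (1246 and 1614 as reported), in DMSO over time 1499 and 37 (244 and 242 as reported), and at 75 nM and 4 h 7 and 16. Repeated quantile normalization gave 40 and 27 genes at 75 nM and 4 h, 67 and 48 at 75 nM and 24 h and 473 and 549 at 468 nM and 4 h. No called member turned sign under either.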

Other observations

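At 468 nM and 4 h, 10.9% of all genes were called and 6.95% were lower. Of the 20 tested genes listed as other lysine methyltransferases and demethylases, 4 were lower and 0 higher. Of 57 partner subunits, 3 were higher and 5 lower (14% called), among them JADE1 (-1.08). CLOCK, a circadian factor with reported acetyltransferase activity, was lower by limma (-0.61).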
